A study of Mus musculus with 13 samples.

Results

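The 10 astrocyte marker genes Gfap, Aqp4, Aldh1l1, Slc1a2, Slc1a3, Gja1, S100b, Aldoc, Fabp7 and Apoe were followed in ATAC-seq peak lists of 13 cultures of oligodendrocyte precursor cells (OPCs). They were chosen by name, as 10 of 55450 annotated genes, with earlier results of these data known. ATAC-seq marks open chromatin through the insertions of a transposase. A called peak is a stretch where insertions exceed the local background of that library. Each library came as 1 list of called peaks, with 16879 to 52466 peaks and without read counts, so the sequencing depth was unknown. A missing peak therefore meant that none was called in that list, not that the chromatin was closed.

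The OPCs came from pups aged 5 to 7 days after birth of litters labelled AMGFAP-Cre;K27M, on an FVB background. K27M pups carried an H3.3 K27M knock-in at the endogenous locus, switched on by Cre under a human GFAP promoter that is active in neural stem and progenitor cells. Control pups were littermates. Brainstems, or dorsal telencephalons with cortex, corpus callosum and hippocampus (labelled cortex), were pooled by genotype, so a culture was a pool of animals. Endothelial cells and microglia were depleted by panning on the lectin BSL1, and OPCs were then captured by panning on an antibody to PDGFRα. All cultures were grown in proliferation medium with PDGF, neurotrophin-3, forskolin and ciliary neurotrophic factor (CNTF). There were 3 control brainstem libraries (cultures 51, 59 and 61), 3 K27M brainstem libraries (41, 59 and 61), 3 control telencephalon libraries (51, 59 and 61) and 4 K27M telencephalon libraries (41, 51, 59 and 61).

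Astrocytes and OPCs share a neural progenitor origin, and OPC panning cultures can hold some astrocytes. The marker genes cover several astrocyte functions. Gfap encodes an intermediate filament, Aqp4 a water channel, Slc1a2 and Slc1a3 the glutamate transporters GLT-1 and GLAST, and Gja1 the gap junction protein connexin 43. Aldh1l1 and Aldoc encode enzymes of folate metabolism and glycolysis, S100b a calcium-binding protein, Fabp7 a fatty acid binding protein and Apoe a lipid carrier. Several of them are not exclusive to astrocytes: Fabp7 and Slc1a3 are also known from radial glia, and S100b and Fabp7 from cells of the oligodendrocyte lineage. CNTF signals through its receptor subunits Cntfr, Lifr and Il6st to STAT3, and STAT3 is known to act on the Gfap promoter.

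The sequences show where the accessible stretches lay. All are given on the strand of the gene (minus for Gfap, plus for the other genes shown), 5′ to 3′, from GRCm38 (mm10), and RefSeq promoters hold 250 bases before and 50 bases after the annotated start. Capitals mark matches to the motifs searched on both strands: a STAT site (TTCNNNGAA), an AP-1 site (TGANTCA), a SOX core (ACAAT), a GC box (GGGCGG) and the full NFI site (TTGGC, 5 bases, GCCAA), each in either orientation, so that a SOX core may read ATTGT. No match overlapped another within these stretches. First come the Gfap promoter (chr11:102897151-102897450), over which no library had a called peak, and the centre of the upstream Gfap peak (chr11:102898505-102898804), called in all 13 libraries.
Gfap promoter: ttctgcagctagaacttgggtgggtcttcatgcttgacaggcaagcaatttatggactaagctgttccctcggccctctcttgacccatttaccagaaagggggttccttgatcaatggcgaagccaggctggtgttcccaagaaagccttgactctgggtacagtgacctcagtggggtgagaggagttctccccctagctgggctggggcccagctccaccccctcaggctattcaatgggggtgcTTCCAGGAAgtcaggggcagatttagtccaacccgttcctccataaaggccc
Gfap upstream peak centre: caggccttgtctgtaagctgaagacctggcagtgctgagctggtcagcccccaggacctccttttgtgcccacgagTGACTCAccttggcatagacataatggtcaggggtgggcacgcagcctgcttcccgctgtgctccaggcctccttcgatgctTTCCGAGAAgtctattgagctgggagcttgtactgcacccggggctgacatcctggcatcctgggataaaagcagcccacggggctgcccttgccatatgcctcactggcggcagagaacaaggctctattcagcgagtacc
The promoter held the STAT match TTCCAGGAA. The centre of the upstream peak held an AP-1 match and the STAT match TTCCGAGAA, which contains a CpG. That match lay at chr11:102898638-102898646, 1507 bp upstream of the principal start in GENCODE and 1438 bp upstream of the RefSeq start. In all 13 libraries the library's own Gfap peak covered the whole match. The same 9 letters stood in 55 of 32851 RefSeq promoters (0.167%), and any STAT match stood in 8.3% of them. Among the centres of 99647 merged peaks, 9.18% held a STAT match and 9.95% an AP-1 match. STAT matches also stood in the RefSeq promoter of Slc1a3 and at a downstream RefSeq start of Aldoc, so they were not particular to Gfap. A match of letters is a description of the sequence and not a measured binding site.

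The promoters of Fabp7 (chr10:57784673-57784972), Gja1 (chr10:56377050-56377349) and Aldh1l1 (chr6:90550543-90550842) and the GENCODE start of Slc1a2 (chr2:102658409-102658708) are shown because their peaks sat differently. The Fabp7 and Slc1a2 stretches were covered whole in all 13 libraries. The peak of Gja1 touched its promoter stretch in 1 library and lay further downstream in the other 12, and 4 libraries had a peak over the Aldh1l1 stretch.
Fabp7 promoter: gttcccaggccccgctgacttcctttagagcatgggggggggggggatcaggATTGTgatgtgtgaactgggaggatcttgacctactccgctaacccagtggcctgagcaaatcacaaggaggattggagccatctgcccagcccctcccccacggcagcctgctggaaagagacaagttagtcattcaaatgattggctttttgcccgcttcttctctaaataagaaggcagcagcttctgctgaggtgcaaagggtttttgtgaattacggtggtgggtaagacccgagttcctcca
Slc1a2 GENCODE start: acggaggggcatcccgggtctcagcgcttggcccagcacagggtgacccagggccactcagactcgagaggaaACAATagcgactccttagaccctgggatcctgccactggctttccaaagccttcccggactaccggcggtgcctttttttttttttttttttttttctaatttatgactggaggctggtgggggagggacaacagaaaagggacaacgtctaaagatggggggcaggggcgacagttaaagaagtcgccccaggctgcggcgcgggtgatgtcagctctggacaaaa
Gja1 promoter: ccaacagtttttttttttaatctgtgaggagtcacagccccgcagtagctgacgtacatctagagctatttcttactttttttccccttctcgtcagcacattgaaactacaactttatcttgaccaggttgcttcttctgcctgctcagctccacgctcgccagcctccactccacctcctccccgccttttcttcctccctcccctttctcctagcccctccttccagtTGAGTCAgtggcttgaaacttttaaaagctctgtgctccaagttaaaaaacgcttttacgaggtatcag
Aldh1l1 promoter: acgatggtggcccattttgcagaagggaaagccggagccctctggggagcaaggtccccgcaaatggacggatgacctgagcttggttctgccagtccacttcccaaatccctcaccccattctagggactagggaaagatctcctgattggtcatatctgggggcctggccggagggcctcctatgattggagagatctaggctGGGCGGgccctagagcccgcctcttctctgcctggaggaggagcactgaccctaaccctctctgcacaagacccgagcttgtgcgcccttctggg
The Gja1 promoter held an AP-1 match (7.81% of RefSeq promoters held one), and the Aldh1l1 promoter a GC box (35.7% of them). The Fabp7 promoter and the Slc1a2 start each held a SOX core (31.0%). The observed over expected CpG ratio was 0.61 at the Slc1a2 start, 0.54 at Gja1, 0.33 at Aldh1l1 and 0.28 at Fabp7, and its median over RefSeq promoters was 0.384. No full NFI site was found in the promoters of the 9 markers that the RefSeq table holds, nor in any of the 78 peaks around the marker genes, and 0.0365% of RefSeq promoters had one. Of Slc1a2 the RefSeq table holds a downstream start, over which no library had a peak.

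Peaks were found at the promoters of all 10 marker genes, but in different numbers of libraries. A gene was counted when any peak overlapped the window of 2 kb before and 1 kb after one of its annotated starts. Gfap, Slc1a2, Gja1 and Fabp7 had a promoter peak in all 13 libraries, S100b and Aldoc in 12, Slc1a3 in 11, Aqp4 in 8, Apoe in 6 and Aldh1l1 in 4. Thus 4 of 10 markers were called in all libraries, beside 42% of 21951 protein-coding genes, and a share near that of all genes is no result about the markers. With this window none of the markers lacked a peak in every list, whereas 30.6% of protein-coding genes did. The same held for the lists of 10 OPC genes, 9 astrocyte regulators and 8 neuronal genes described below, so it was not particular to the markers. A gene with many annotated starts also has more windows in which a peak counts, and Slc1a2 has 11 and Apoe 10. In bulk cultures a smaller share of cells with an open site and a weaker opening in each cell cannot be told apart.

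**Figure D1:**
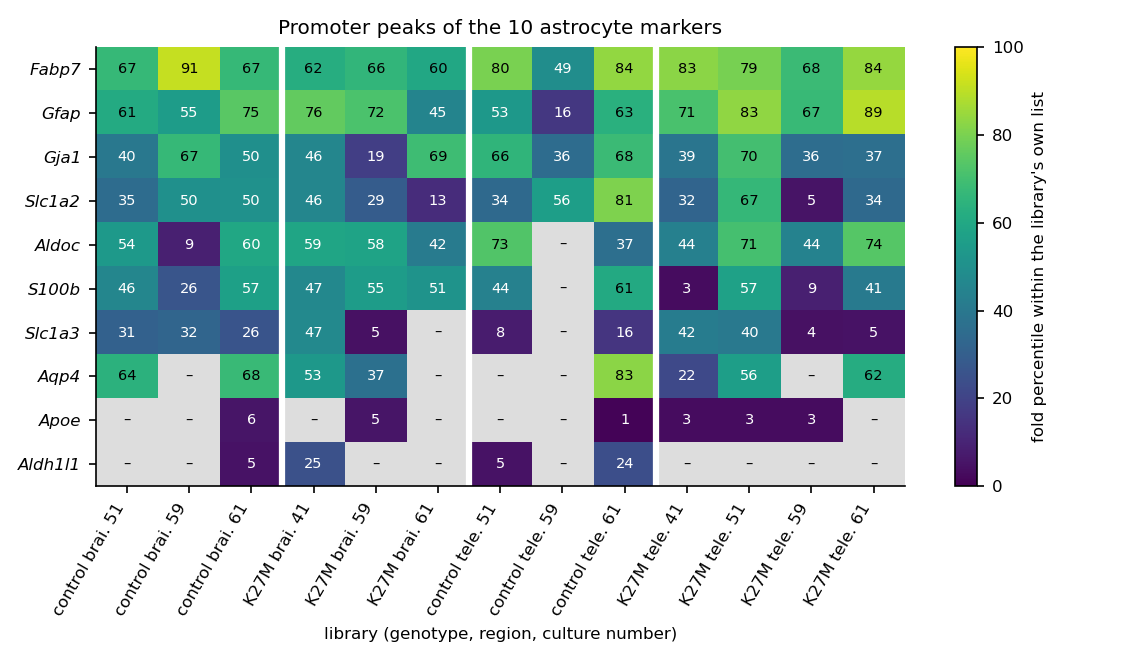
The heat map gives the fold percentile of the strongest promoter peak of each marker (rows) in each library (columns, by genotype, region and culture number). Numbers are percentiles within the library's own list, and grey cells with a dash mark promoters without a called peak. Where called, Apoe stayed at or below 5.67 and the mean of Fabp7 was 72.3.

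The number of markers with a promoter peak moved with the length of the list. It was 4 in the shortest list (control telencephalon, culture 59, 16879 peaks) and 10 in control brainstem culture 61 (52466 peaks) and control telencephalon culture 61 (45322 peaks). Between them lay 8 and 7 in control brainstem cultures 51 and 59, 9, 9 and 6 in K27M brainstem cultures 41, 59 and 61, and 8 in control telencephalon culture 51. K27M telencephalon cultures 41, 51, 59 and 61 had 9, 9, 8 and 8. The share of all protein-coding promoters with a peak also moved with list length. It ran from 44.4% in the shortest list to 64.0% in control brainstem culture 61, so the move was not particular to the markers. When each list was reduced to its 16879 most significant peaks, the range narrowed from 4 to 10 down to 4 to 6 markers per library. At that equal length Gfap and Fabp7 were still called in all 13 libraries, Slc1a2 in 12, Aldoc in 10 and S100b in 9. Gja1 fell from 13 libraries to 4 and Slc1a3 from 11 to 0. The share of all promoters at equal length is not given here.

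**Figure D2:**
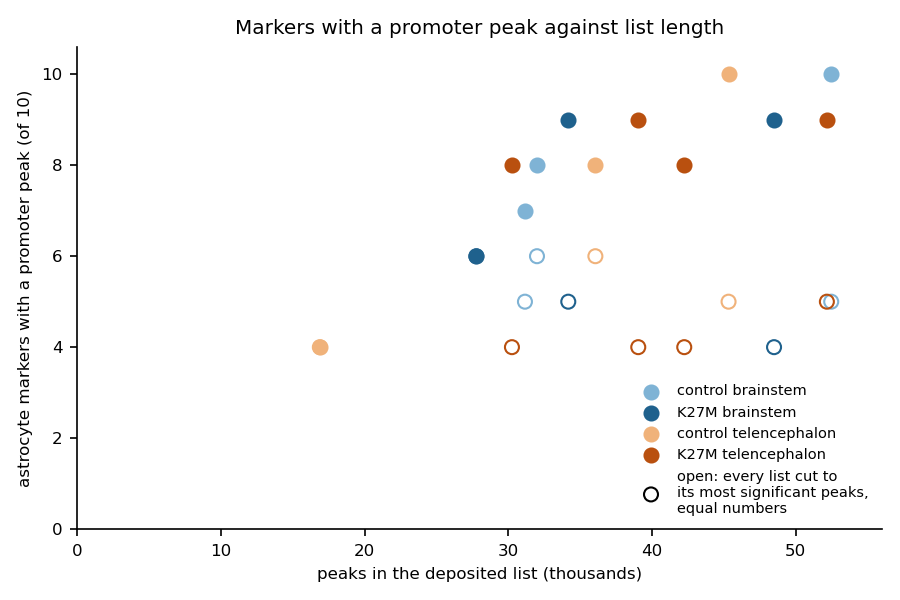
Each point is a library, with the number of peaks in its deposited list (x axis, in units of 1000) and the number of the 10 markers with a promoter peak (y axis). Filled points use the lists as deposited (4 to 10 markers), and open points lists reduced to their most significant peaks at equal number (4 to 6 markers).

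Gfap had the second highest mean fold percentile of the markers called in all libraries. The fold of a peak is its signal divided by the background around it in that library, and the percentile is the share of the library's own peaks with a lower fold. The promoter fold of a gene is that of its strongest peak at any annotated start. The Gfap fold was 3.17, 3.07 and 3.73 in control brainstem cultures 51, 59 and 61, and 3.60, 3.45 and 2.80 in K27M brainstem cultures 41, 59 and 61. It was 2.74, 2.53 and 3.32 in control telencephalon cultures 51, 59 and 61, and 3.19, 3.96, 3.27 and 3.80 in K27M telencephalon cultures 41, 51, 59 and 61. The lowest value belonged to the library with the shortest list, and the ranges of all 4 groups overlapped. The mean was 3.28 ± 0.43 (SD, n = 13), at a mean percentile of 63.6. The peak lay at chr11:102898178-102899131, 1047 to 2000 bp upstream of the principal start and in an intron of a longer annotated transcript. With a promoter window of 500 bp on either side, Gfap was called in 7 libraries in place of 13. A weaker peak at chr11:102900932-102901958, upstream of the longer transcript, was called in 8 libraries at a fold of 2.03 ± 0.13 (SD, n = 8) and a mean percentile of 1.04.

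Fabp7 had the highest mean percentile of the markers, 72.3. Its fold was 3.27, 3.96 and 3.49 in control brainstem cultures 51, 59 and 61 and 3.15, 3.32 and 3.01 in K27M brainstem cultures 41, 59 and 61. In control telencephalon cultures 51, 59 and 61 it was 3.26, 2.84 and 4.00, and in K27M telencephalon cultures 41, 51, 59 and 61 it was 3.50, 3.79, 3.29 and 3.59. The groups overlapped, with the lowest value again in the shortest list. The peak, chr10:57783337-57786271, spanned the start of the gene and also reached the promoter of the pseudogene Gm5777. A second peak at chr10:57774730-57778289, 6592 to 10151 bp upstream, was called in all 13 libraries at a fold of 3.03 ± 0.34 (SD, n = 13).

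The glutamate transporter genes differed in where their peaks lay. The Slc1a2 promoter fold was 2.81, 3.01 and 3.09 in control brainstem cultures 51, 59 and 61 and 2.75, 2.79 and 2.44 in K27M brainstem cultures 41, 59 and 61. In control telencephalon cultures 51, 59 and 61 it was 2.53, 2.90 and 3.86, and in K27M telencephalon cultures 41, 51, 59 and 61 it was 2.62, 3.32, 2.44 and 2.60. In the brainstem the highest K27M value (2.79) and the lowest control value (2.81) nearly met, and the telencephalon groups overlapped. The share of all promoters whose groups part in this way was not counted. Within the brainstem 0 of the 4 marker promoters tested by limma had an unadjusted p under 0.05 by genotype. In K27M brainstem culture 41 and K27M telencephalon culture 61 the strongest peak lay at another Slc1a2 start (chr2:102674176-102675548), and the peak at the principal start (chr2:102657882-102659866) had a fold of 2.70 and 2.36 there. The strongest peak within Slc1a2 was intronic, chr2:102744469-102746130, at the promoter of the annotated gene Gm13872, with a fold of 3.85 ± 0.44 (SD, n = 13) and a mean percentile of 84.9. At Slc1a3 the promoter peak (chr15:8709136-8710833) had a mean percentile of 22.3 over the 11 libraries that had it. The fold of that peak was 2.78, 2.81 and 2.69 in control brainstem cultures 51, 59 and 61, 2.78 and 2.44 in K27M brainstem cultures 41 and 59, 2.26 and 2.32 in control telencephalon cultures 51 and 61, and 2.72, 2.70, 2.40 and 2.23 in K27M telencephalon cultures 41, 51, 59 and 61. The libraries without it were K27M brainstem culture 61 and control telencephalon culture 59, which had the shortest lists. An intronic peak 50119 to 51478 bp downstream of the start, chr15:8659286-8660645, was called in all 13 libraries at a fold of 3.71 ± 0.44 (SD, n = 13) and a mean percentile of 80.9. Its values ran from 2.79 in the shortest list to 4.35.

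Gja1 was called in all 13 libraries at folds of 2.62 to 3.44 (median 2.86), with a mean percentile of 49.3. S100b and Aldoc were missing from the same library, control telencephalon culture 59, and ran from 2.26 to 3.25 and from 2.54 to 3.45 in the other 12. The S100b peak was chr10:76253369-76254451 and the Aldoc peak chr11:78321693-78324309, each spanning the principal start.

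The remaining markers were called in part of the libraries. Aldh1l1 had a promoter peak (chr6:90550337-90551071) in control brainstem culture 61 (fold 2.31), K27M brainstem culture 41 (2.42) and control telencephalon cultures 51 and 61 (2.21 and 2.65), and in no K27M telencephalon library. Yet its locus held 17 peaks within 20 kb of the gene, of which 11 lay in the gene body outside any promoter. An intronic peak 8532 to 9948 bp upstream of the principal start, chr6:90540841-90542257, was called in all 13 libraries at a fold of 3.49 ± 0.44 (SD, n = 13) and a mean percentile of 74.0. Apoe was the weakest marker, called in control brainstem culture 61 (fold 2.37), K27M brainstem culture 59 (2.46), control telencephalon culture 61 (2.09) and K27M telencephalon cultures 41, 51 and 59 (2.26, 2.18 and 2.36). The value of control brainstem culture 61 came from a peak further upstream (chr7:19701009-19701774), and the peak at the Apoe start had a fold of 2.02 there. The mean percentile of Apoe was 3.69, while the Tomm40 promoter peak nearby, chr7:19715017-19716456, stood at 97.6 in 13 libraries. Where there was no peak at Apoe or at the Aldh1l1 promoter, a lower limit could not be given without read counts.

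Aqp4 had a single peak within 20 kb, chr18:15404629-15405686, 871 to 1928 bp upstream of the principal start and in an annotated intron. It was called in control brainstem cultures 51 and 61 (fold 3.22 and 3.52), K27M brainstem cultures 41 and 59 (2.92 and 2.88), control telencephalon culture 61 (3.94) and K27M telencephalon cultures 41, 51 and 61 (2.53, 3.03 and 3.00). The 5 libraries without it came from all 4 groups. With a promoter window of 500 bp on either side, Aqp4 was called in 0 libraries in place of 8. Where called, the control values (3.22 to 3.94) lay above the K27M values (2.53 to 3.03), a comparison that was not tested because 5 libraries had no value. These folds are not normalised between libraries, and the share of other promoters that part in this way was not counted. The order is therefore no result about Aqp4. Called peaks had a mean percentile of 55.7, above that of Apoe in every library that had both.

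**Figure D3:**
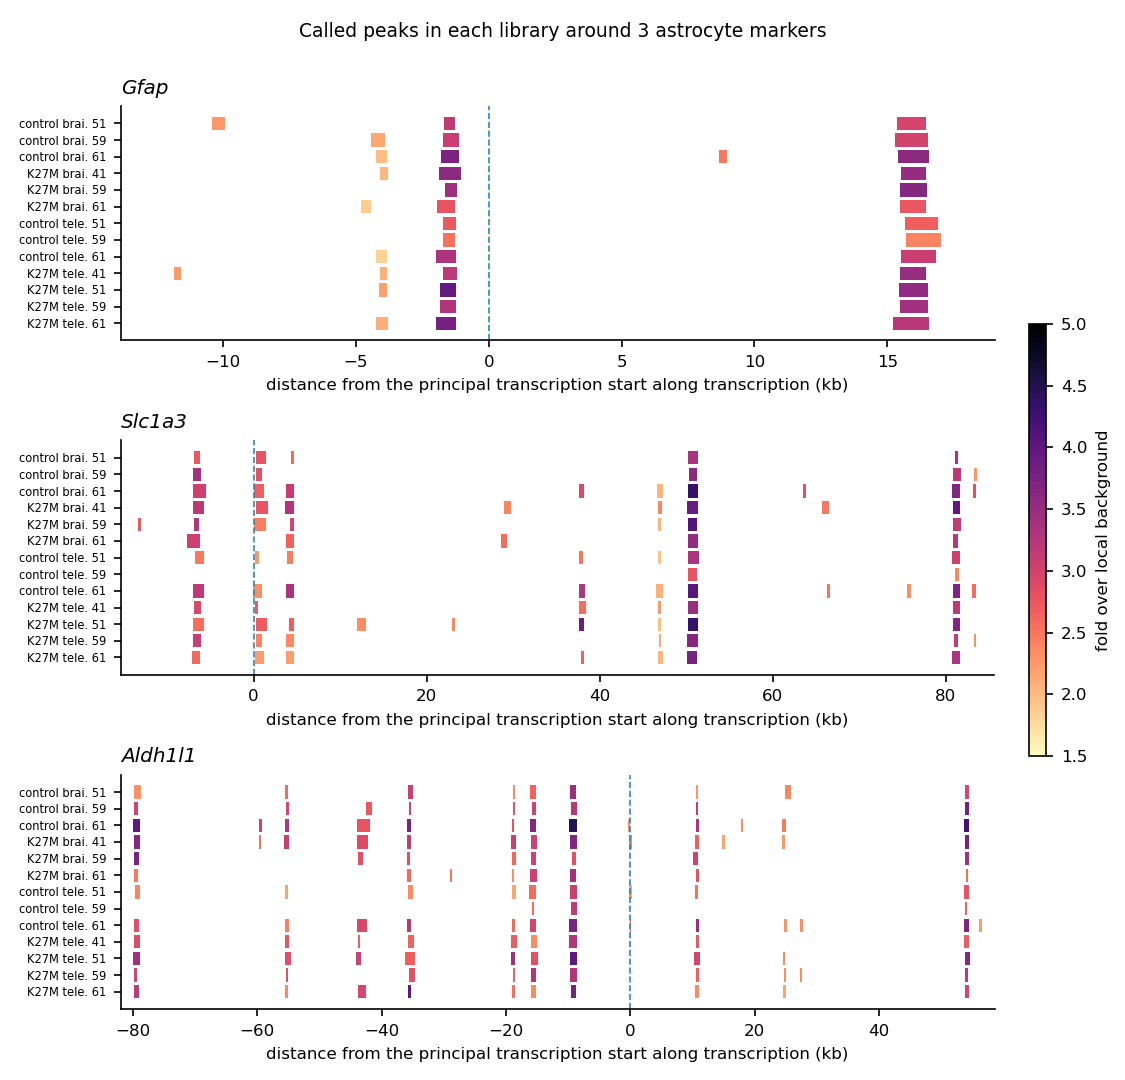
Bars are the called peaks of each library (rows) within 20 kb of Gfap, Slc1a3 and Aldh1l1, placed by distance in kb from the principal transcription start along the direction of transcription (dashed line) and coloured by fold. Gfap had its recurrent peak upstream of the start, and Slc1a3 and Aldh1l1 had recurrent peaks in introns.

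Within 20 kb of the 10 genes the lists held 78 merged peaks, joined over libraries where they overlapped by at least 1 bp. Of these, 18 lay at promoters of the markers, 13 at promoters of other genes, 30 in gene bodies and 17 in the flanks. In all, 15 of 78 were called in every library, beside 13056 of all 99647 merged peaks on the assembled chromosomes, and 27 were called in 1 library. Of the 15, 5 lay in gene bodies or flanks outside any promoter: 2 at Aldh1l1, 2 at Slc1a3 and 1 at Fabp7. Gja1 and Aqp4 had the fewest peaks, 2 and 1. The shortest list had 15 of the 78 peaks, and the other lists had 30 to 50.

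Marker genes of other cell types placed these counts in context. Of 10 OPC genes, 9 had a promoter peak in all 13 libraries, at mean percentiles of 5.71 to 82.3. The highest were Sox6 (82.3, on peaks that also reached the promoter of 1110004F10Rik), Gpr17 (62.3), Lhfpl3 (55.4) and Ptprz1 (42.5). Pdgfra, the panning antigen, was called in 13 libraries (18.4) and Cspg4, which encodes NG2, in 3 (0.0828). The lineage transcription factors Olig2 (41.3), Olig1 (40.3), Nkx2-2 (35.5) and Sox10 (5.71) were called in 13 libraries. These 6 genes, and Tubb3, Lifr and Nfix in what follows, were picked for naming with their values in view. The microglial genes Cx3cr1, Csf1r, Itgam and C1qa had no promoter peak in any library, nor had endothelial Cdh5 and Tek or myelin genes Mog and Mag. In contrast P2ry12, a microglial purine receptor, had a peak in 12 libraries at a mean percentile of 70.3, Aif1 in 2 and Tmem119 in 4. Among endothelial genes Flt1 was called in 11 libraries, Kdr in 10, Cldn5 in 3 and Pecam1 in 1. Among genes of mature oligodendrocytes, Cnp was called in 13 libraries, Mbp in 12 and Mobp in 1. Neuronal genes Elavl4, Syt1 and Snap25 were called in 13 libraries at mean percentiles of 94.2, 92.3 and 77.5, as was Tubb3 at 13.2, and Stmn2 was called in 6.

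Counts of other cell type markers did not part the groups. The microglial list of 8 had 1 to 2 genes called per control brainstem library, 1 to 2 per K27M brainstem library, 0 to 2 per control telencephalon library and 1 to 3 per K27M telencephalon library. For the endothelial list of 6 the same ranges were 1 to 3 in each group. The neuronal list of 8 had 5 to 8 genes called per library. Their part in the marker values was not tested.

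Other astrocyte genes were called in all libraries in a like share. Of 26, 12 (46.2%) had a promoter peak in all libraries and 12 in some, while Gjb6, encoding connexin 30, and Slc39a12, a zinc transporter, had none. The highest mean percentiles were those of Glul, encoding glutamine synthetase (89.9, on a peak that also reached the promoter of Teddm2), Ttyh1 (88.5), Ppp1r3c (82.4) and the mitochondrial glutamate carrier Slc25a18 (80.8). Of 9 regulators of astrocyte formation and CNTF signalling, 8 were called in all libraries and Cntfr, on a peak shared with Il11ra1, in 12. The mean percentiles of those 8 ran from 25.0 to 98.6 (median 67.1). Zbtb20 stood at 98.6, Il6st at 95.8, Stat3 at 91.5 and Nfia, on peaks shared with E130114P18Rik, at 72.7, while Lifr stood at 37.8 and Nfix at 25.0. The markers called in all libraries had mean percentiles of 41.0 to 72.3 (median 56.5), beside a median of 75.7 for the 9211 protein-coding genes called in all libraries and of 41.3 for the 9 OPC genes.

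**Figure D4:**
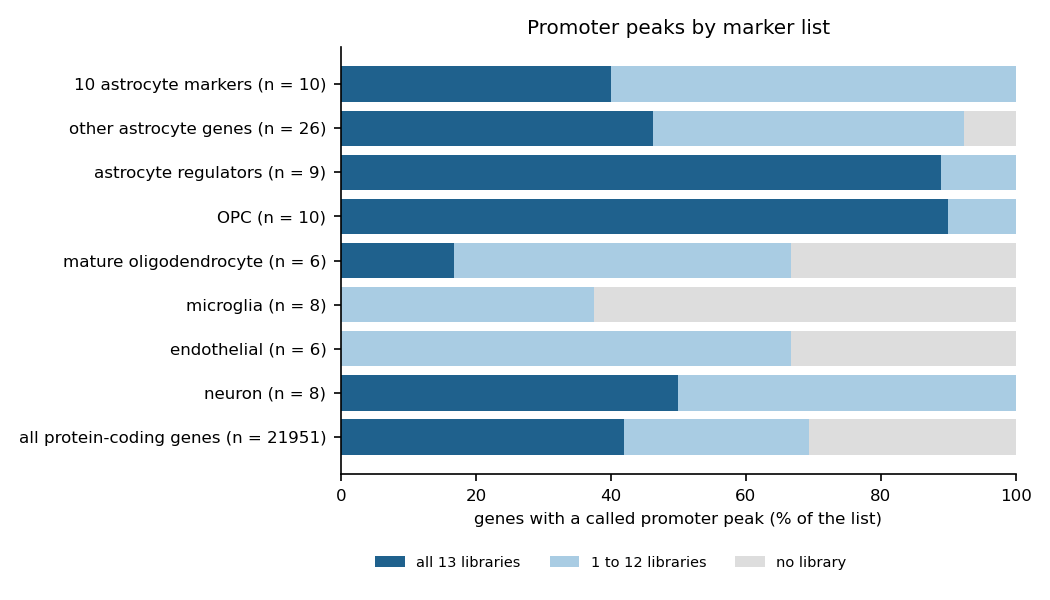
Bars give, for each gene list and for all 21951 protein-coding genes, the percent of genes with a promoter peak in all 13 libraries, in 1 to 12 libraries and in no library. The 10 markers, the OPC genes, the astrocyte regulators and the neuronal genes had no gene without a peak, and the microglial list had 5 of 8.

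The comparison of regions asked whether brainstem and telencephalon cultures differed at the markers, as a check of cell mix. Detection was tested only for genes called in 5 to 8 libraries, which left Aqp4 and Apoe. Aqp4 was called in 4 of 6 brainstem and 4 of 7 telencephalon libraries (Fisher's exact test, two-sided, p = 1, adjusted p = 1). Apoe was called in 2 of 6 and 4 of 7 (exact p = 0.592, adjusted p = 1). The background was 0%, with 0 of 1815 genes called and 39 at an unadjusted p under 0.05. The lowest exact p among these genes was 0.00058, and its adjusted p was 0.212 (Fisher's exact test). With 13 libraries neither marker could have passed beside the other genes, so the test decides nothing about cell mix. Around the marker genes, 10 peaks could be tested, and the lowest exact p was 0.103, for the flank peak of Slc1a2 at chr2:102648637-102651466 (5 of 6 and 2 of 7) and for an intronic Slc1a3 peak at chr15:8672363-8673169 (1 of 6 and 5 of 7). The adjusted p was 1 for both. Here too the background was 0% of 11706 peaks, with 276 at an unadjusted p under 0.05. The lowest adjusted p of any peak was 0.84 (Fisher's exact test), so this test had the same limit.

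Where a promoter was called in all libraries, its log2 fold was compared with limma after cyclic loess normalization, with culture number as a term. The brainstem minus telencephalon difference in log2 fold was −0.02 ± 0.07 (SE) for Gfap, −0.10 ± 0.07 for Slc1a2, −0.05 ± 0.07 for Gja1 and −0.11 ± 0.07 for Fabp7. No adjusted p was below 0.931, and the intervals of all 4 included 0. The 95% interval for Gfap ran from −0.16 to 0.12. In the same fit 5 of 11483 promoters (0.0435%) passed, none of them a marker. The median difference was −0.07 over the 4 markers and −0.0012 over all promoters tested. Of the other lists, 12 further astrocyte genes, 8 regulators, 9 OPC genes and 4 neuronal genes could be tested, and 0 rose and 0 fell in each. For the distal peaks the difference was 0.02 ± 0.07 for the Slc1a3 intronic peak, −0.05 ± 0.07 for the Aldh1l1 intronic peak and −0.07 ± 0.07 for the Fabp7 flank peak, none of which passed (limma adjusted p of 0.909 or more). Over all peaks called in 13 libraries, 4 of 13075 (0.0306%) passed by region, and 0 of the 15 around the markers. The lowest adjusted p of the 15 was 0.637, for the intronic Slc1a2 peak at the Gm13872 promoter (limma, unadjusted p = 0.0210). It differed by −0.17 ± 0.07, with a 95% interval from −0.31 to −0.03, and 883 of the 13075 peaks had an unadjusted p under 0.05.

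The comparison of genotypes asked the same of K27M and control cultures. Aqp4 was called in 5 of 7 K27M and 3 of 6 control libraries, and Apoe in 4 of 7 and 2 of 6 (exact p = 0.592 and adjusted p = 1 for both). No gene was called by genotype (0% of 1815, 22 at an unadjusted p under 0.05), and no peak (0% of 11706, 147 unadjusted). The lowest adjusted p of any gene was 0.353 (Fisher's exact test), so neither marker could have passed and these detection tests decide nothing. The K27M minus control difference in log2 fold was 0.13 ± 0.07 for Gfap (95% interval −0.03 to 0.28), −0.06 ± 0.08 for Gja1 and −0.07 ± 0.08 for Fabp7. For Slc1a2 it was −0.18 ± 0.08, with an interval from −0.34 to −0.02 and an unadjusted p of 0.0311 by limma, but the adjusted p was 0.999. Group means of the Slc1a2 fold were 3.03 ± 0.45 (SD, n = 6) in control and 2.71 ± 0.30 (SD, n = 7) in K27M libraries, with overlapping ranges. In all, 0 of 11483 promoters (0%) and 0 of 13075 peaks (0%) passed by genotype, with 538 promoters at an unadjusted p under 0.05. The median difference was −0.07 over the 4 markers, 0.04 over the 12 further astrocyte genes, −0.03 over the 8 regulators, −0.05 over the 9 OPC genes and 0.07 over the 4 neuronal genes, of which 0 passed, beside 0.00013 over all promoters tested. The distal peaks differed by 0.10 ± 0.07 at Slc1a3, −0.06 ± 0.08 at Aldh1l1 and 0.06 ± 0.07 at Fabp7 (limma adjusted p = 0.995 for each).

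**Figure D5:**
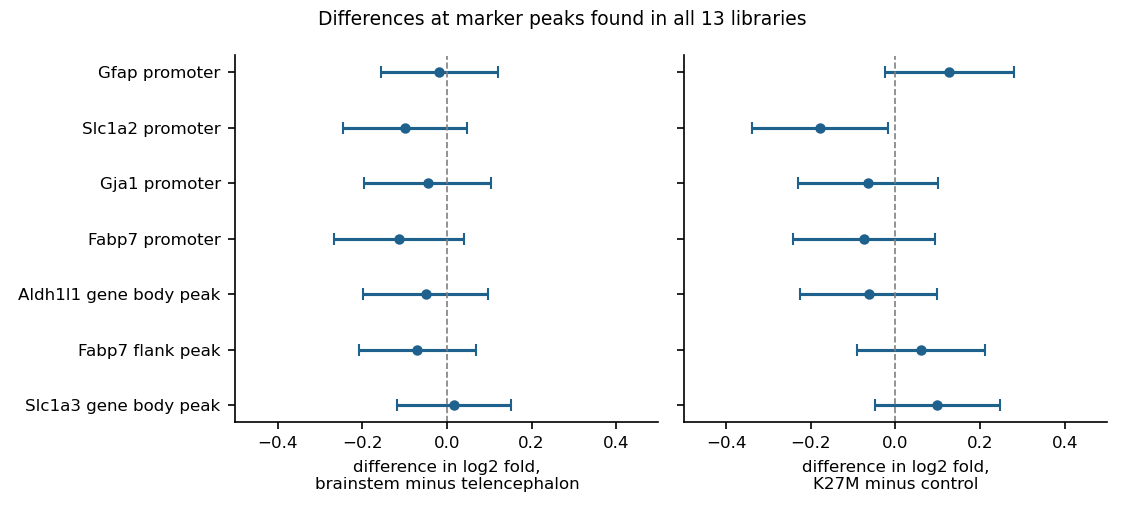
Points are limma estimates of the difference in log2 fold (x axis) at the 4 marker promoters and 3 distal marker peaks called in all 13 libraries, by region on the left and by genotype on the right, and bars are 95% intervals. All region intervals crossed 0, and of the genotype intervals that of Slc1a2 did not (−0.34 to −0.02, adjusted p = 0.999).

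Within the telencephalon the Gfap fold was 2.86 ± 0.41 (SD, n = 3) in control and 3.55 ± 0.38 (SD, n = 4) in K27M libraries, and in the brainstem 3.32 ± 0.36 (SD, n = 3) and 3.28 ± 0.43 (SD, n = 3). The normalized difference was 0.24 ± 0.10 (SE) in the telencephalon, with an unadjusted p of 0.0176 and an adjusted p of 0.999 by limma, and 0.01 ± 0.11 in the brainstem. Slc1a2 differed in the opposite direction in the telencephalon, by −0.22 ± 0.10 (limma, unadjusted p = 0.0363, adjusted p = 0.999). The peak at the promoters of Ccdc103 and Eftud2 near Gfap differed there by 0.24 ± 0.10 (limma, unadjusted p = 0.0170, adjusted p = 0.998). Within the telencephalon 0 of 11483 promoters and 0 of 13075 peaks passed by genotype in limma. At an unadjusted p under 0.05 were 502 of those promoters and 547 of those peaks. For the Gfap promoter the difference between the genotype effects, brainstem minus telencephalon, was −0.23 ± 0.14 (adjusted p = 1.00, limma) and did not pass. No promoter and no peak passed this test of the difference (0% of each). The control telencephalon group held the library with the shortest list and the lowest Gfap fold, and the Gfap genotype difference over both regions ran from 0.091 to 0.19 when each library was left out in turn.

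The promoters whose normalized log2 fold followed Gfap most closely over the 13 libraries were 1700001D01Rik (Pearson r = 0.872) and Mir6359 and Rttn, which share a peak (0.819 for both). They were the highest of 11482 promoters, and the points share libraries and normalization. With Gfap, Fabp7 correlated at 0.11, Slc1a2 at −0.24 and Gja1 at −0.44.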

How the data were processed

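Peak lists of 13 libraries were used. The authors ran nf-core ATAC-seq on mm10 with BWA 0.7.17-r1188, removed blacklisted regions and ran MACS2 2.2.7.1 on single libraries for broad peaks. The deposited fold is a ratio over local background, the deposited p and q are −log10 values, and the deposited score was not analysed. Which cutoff MACS2 was run with is not given in the sources used here, and the fold in these lists is not normalised between libraries. Depth is unknown, so no counting interval is given.

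Promoters came from GENCODE M21 (GRCm38) and sequences from RefSeq or GRCm38.p6. Detection was compared by Fisher's exact test over genes or peaks called in 5 to 8 libraries, and log2 fold by limma 3.58.1 (R 4.3.3) with cyclic loess, group and culture number, on features called in all 13. P-values were adjusted by Benjamini-Hochberg at 0.05 over all features tested. The limma comparison by region was checked on simulated promoter values with known changes. Peak overlap, merging and the adjustment of p-values were checked on simulated intervals and values. Fisher's exact test, the permutation, the peak fits and the genotype comparisons were not checked in this way. Culture numbers come from the labels. The study's methods describe K27M and control cultures of a region as matched in time, culture 41 has no control library, and the number was used as a term over all groups. Deviations of libraries with the same number correlated above 0.1 in 5 of 16 pairs (11483 promoters, median r 0.052). Those with different numbers did so in 4 of 47 pairs (median r −0.026). The highest r was 0.184 for the same number and 0.286 for different numbers.

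The markers and lists were chosen with earlier results of these data known. Named genes were the 10 markers, listed genes without any promoter peak, those past the threshold, up to 4 others per list by mean percentile, the 3 genes most like Gfap, and the strongest distal peak per marker. Peak cutoffs, list length, window, normalization and left-out libraries were varied. Some genes of the comparison lists are counted but not reported here by name.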

Additional observations from a re-analysis of the deposited data

Results flagged for a closer look

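In the K27M telencephalon group of 4 libraries, culture 51 stood apart from the other cultures in 2 values by Dixon's test. The fold percentile of its Gja1 promoter peak was 69.96, and those of the other cultures lay between 35.9 and 38.8. At the flank peak upstream of Fabp7 (chr10:57774730-57778289) its fold percentile was 81.45, and those of the other cultures lay between 52.9 and 56.9. The list of culture 51 was the longest of the group, with 52164 peaks. Chance flags about 1 in 20 such groups, and 22 groups of values were looked at.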

How the results depend on the processing

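The number of markers with a promoter peak in all 13 libraries depended on the cutoff: 4 as deposited, 2 at equal peak numbers, 1 with peaks at p of 1e-06 or less and 0 at 1e-10 or less. It was 4 to 6 when each library was left out, and it was 6 without control telencephalon culture 59, which added S100b and Aldoc. With a window of 500 bp on either side it was 3, without Gfap, and Aqp4 was then called in 0 libraries. The median number per library was 8, and 5, 5 and 2 at equal peak numbers, 1e-06 and 1e-10, alternatives added after seeing the data. No marker promoter or locus peak that could be tested passed any test of region, genotype or their difference under any alternative run. That includes the fits without the replicate block (culture number), where 0 passed. No marker promoter entered the detection tests at 1e-06 or at equal peak numbers, nor the fold tests at 1e-10. Those alternatives therefore say nothing about the stability of the marker promoters. The exact permutation of detection within culture (replicate block) could not pass after adjustment, with lowest p of 0.03125 by region and 0.0625 by genotype, and says nothing about stability.

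Small differences turned sign. Without normalization the region difference was 0.054 for Gfap, 0.016 for Gja1 and 0.021 for the Aldh1l1 intronic peak, but the median of all promoters moved to 0.07 as well (and to −0.10 for the difference between genotype effects), and all 3 stayed below that median. By percentile the Gfap region difference was 3.53 percentile points. Leaving out each library gave region differences of −0.044 to 0.026 (Gfap), −0.12 to 0.0086 (Gja1), −0.0087 to 0.046 (Slc1a3 intronic peak) and −0.11 to 0.015 (Aldh1l1 intronic peak). Genotype differences ran from −0.15 to 0.010 (Fabp7), −0.17 to 0.011 (Gja1) and −0.12 to 0.0080 (Aldh1l1 intronic peak). The cause of these sign changes on leaving out a library was not tested. The genotype difference of Gfap stayed positive and that of Slc1a2 negative in every alternative that gave a value. Unknown depth limits all absent calls.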
